A study of Mus musculus with 32 samples.

Results

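The transcriptome change between 24 and 36 h after removal of 2i was described in E14 mouse embryonic stem cells. The comparison used 4 of the 32 libraries of the study, 2 at 36 h and 2 at 24 h, picked by the times in their labels, and the comparison itself was chosen with earlier results of these data known. E14 is an established line of blastocyst origin, and its cells carried no engineered allele that the labels name. In every group they grew on gelatin in serum-free N2B27 medium. The 2i medium added 3 uM CHIR99021, which inhibits the kinase GSK3, and 1 uM PD0325901, which inhibits the kinase MEK. Single cells were plated in 2i, the inhibitors were taken out on the following day, and the groups compared had then spent 24 h or 36 h in N2B27 alone. The other libraries used below are further times of the same 2i course (0, 12, 48, 60, 72 and 84 h) and a course from 2iL, which is 2i with the cytokine LIF, at 24, 36 and 48 h after removal of all 3 additions. Polyadenylated RNA was sequenced from the 3' end of transcripts, 1 value per gene.

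Naive pluripotency is the state of the preimplantation epiblast. It is held by a circuit of transcription factors that includes NANOG, ESRRB, KLF4 and TFCP2L1, and 2i sustains it by relieving repression through TCF7L1 and by blocking ERK signalling. Once the inhibitors are gone, the cells dismantle that circuit and take up the formative state of the early postimplantation epiblast, marked by OTX2, POU3F1 (OCT6) and the de novo DNA methyltransferases, before lineage choice. In N2B27 without further signals such cultures go on towards neural fates.

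The 4 libraries held 2214180 and 2860019 counts at 24 h and 1677168 and 1415744 counts at 36 h, over 14476 to 15383 detected genes, and 3 counts corresponded to 1.05 to 2.12 CPM (counts scaled to a total of 1000000). Replicates correlated at r = 0.978 (24 h) and r = 0.971 (36 h) across genes on a log2 scale, and genes are not independent. The share of counts in the 10 highest genes overlapped between the groups, at 24.5% and 19.2% against 18.3% and 23.5%. One library elsewhere in the study, 2iL 36 h replicate 2, held only 7298 counts, and 4 others had stood apart from their groups in earlier work on these data, namely replicate 2 at 12 h of the 2i course and, in the 2iL course, replicate 1 at 48 and at 96 h and replicate 2 at 84 h. None of these 5 is among the 4 compared. Nothing in the labels says that replicates were separate cultures, and the p-values therefore cover only the spread between replicate libraries, which may be technical. That spread, and the standard errors with it, was estimated from all 32 libraries, these 5 included, and not from the 4 compared alone. Because cultures were sequenced in bulk, fewer cells of a type and less RNA per cell cannot be told apart.

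Between 24 and 36 h, 57 genes rose and 63 fell among 11761 tested genes (edgeR quasi-likelihood test, adjusted p under 0.05), which is 0.485% and 0.536% of them and 1.02% in both directions. The falls took in 6 naive pluripotency genes, the Nodal co-receptor gene Tdgf1 and Dnmt3l. The rises took in Prtg, Prom1, Nes, Ptn and Sox4, which are known from neuroepithelium. They are examples picked from the 57, and Prtg and Prom1 belong to none of the lists. Of 26 tested early neural genes 18 had a value above 0 and 8 below. The median log2 fold change was 1.53 among the risers and -1.59 among the fallers, which were picked by this value. Over all tested genes it was 0.00251. Levels below are CPM after TMM scaling, in the order 24 h replicate 1, 24 h replicate 2, 36 h replicate 1, 36 h replicate 2, and a fold change is followed by its standard error (n = 2 libraries per group). At an unadjusted p under 0.05 the test passed 1149 genes (9.77%), 635 higher and 514 lower. The counts for gene lists below are to be read beside these and the shares called.

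**Figure D1:**
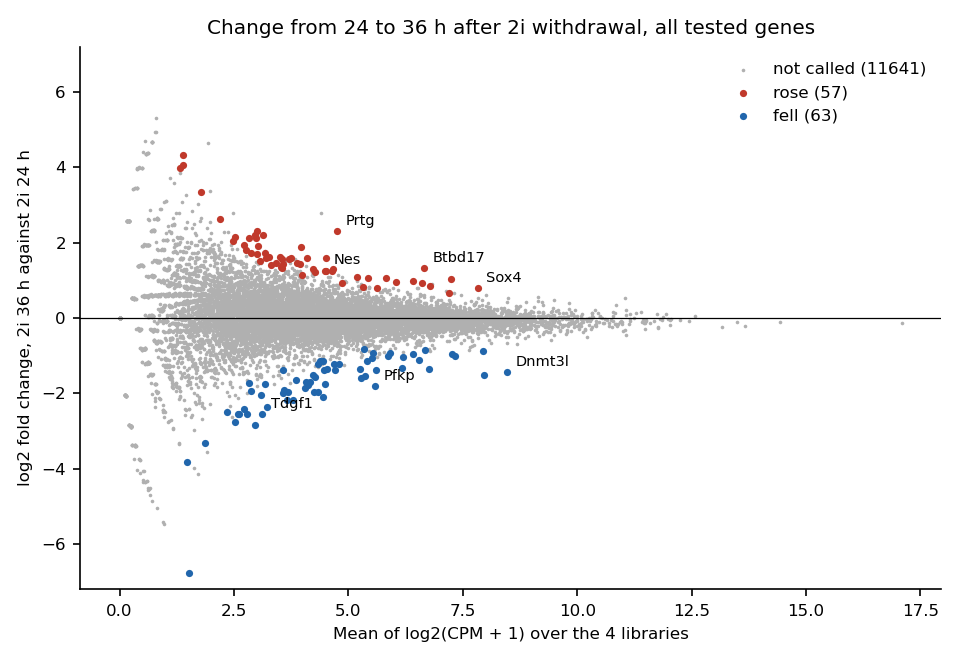
Change from 24 to 36 h in the 2i course for each tested gene (y axis, log2 fold change) against its mean level in the 4 libraries (x axis, log2 of CPM plus 1). Grey points are the genes that were not called, red points the 57 that rose and blue points the 63 that fell. Fitted values of the 7 called genes with 0 to 3 counts in a group depend on the fit's prior count.

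The replicates of all 120 genes did not overlap between the times, as was also so for 23% of all tested genes in the upward and 22.7% in the downward direction. How many genes passed depended on each library. With 1 of the 4 left out, the fit called 9 risers and 27 fallers (without 24 h replicate 1), 2 and 10 (without 24 h replicate 2), 1 and 2 (without 36 h replicate 1) or 7 and 4 (without 36 h replicate 2). All 120 kept their sign in all 4 of these fits. That follows from the lack of overlap between replicates and is no further support. Prtg was the 1 gene called in all of them, 5 genes (Prtg, Prom1, Dnmt3l, Trap1a and Pfkp) were called in at least 3, and 47 of the risers and 33 of the fallers were called in none. The fits that left out the 4 libraries standing apart, or used the 2i course alone, called all 120 again. Both fits kept the 4 compared libraries and called more genes in all, so getting these 120 back is no further support. DESeq2 called 13 of them, namely Prtg, Prom1, Aif1l, Btbd17, Ptn and Lpar4 among the risers and Tdgf1, Dnmt3l, Trap1a, Pfkp, Zfp42, Sult6b1 and Hmox1 among the fallers.

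Every call among naive pluripotency genes was a fall. Of 24 tested members edgeR called 6 lower (0.536% over all tested genes) and 0 higher (0.485%), and DESeq2 called 1 lower and 0 higher. At an unadjusted p under 0.05, 16 were lower and 0 higher, against 9.77% of all tested genes in both directions. The median log2 fold change of the list was -0.94 (-1.02 when the 1 member at or under the floor in both groups is left out). With no overlap between replicates 20 members lay lower, against 22.7% of all tested genes. The summed level of the list was 1198 and 1342 CPM at 24 h and 943 and 890 CPM at 36 h, so the groups did not overlap. The number of members called lower was 3 without 24 h replicate 1, 0 without 24 h replicate 2, 0 without 36 h replicate 1 and 1 without 36 h replicate 2. It was 10 without the 4 libraries that stand apart, and 7 without the shallow one. The list was chosen with earlier results of these data known, and its direction is a description.

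Zfp42 (Rex1, ENSMUSG00000051176, chromosome 8, 43295063 to 43306980, build mm10), a zinc finger gene widely used as a reporter of the naive state, stood at 27.04, 33.6, 9.50 and 9.05 CPM. Both libraries at 36 h were below both at 24 h, and the gene fell by 1.71 ± 0.30 on the log2 scale (adjusted p = 0.0029). Tcl1, which encodes a coactivator of the kinase AKT, stood at 11.5, 18.6, 3.56 and 3.77 CPM and also fell without overlap (-2.05 ± 0.49, adjusted p = 0.030). Nr0b1 (Dax1), a nuclear receptor gene of the naive circuit, was at 11.5, 12.4, 2.38 and 1.51 CPM (-2.55 ± 0.64, adjusted p = 0.041). Of these 3, Zfp42 and Tcl1 were still called without 24 h replicate 1, and none was called with any other library of the 4 left out, where the adjusted p ranged from 0.073 to 0.11 for Zfp42. The other 3 called members were Mylpf, a myosin light chain gene (-1.70 ± 0.29), Tet2 (-1.94 ± 0.49) and Zfp57 (-1.65 ± 0.42).

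The core factors of the naive circuit were already low at 24 h and did not pass the test. Nanog, the homeobox factor, stood at 7.51, 6.21, 5.35 and 4.52 CPM (-0.44 ± 0.47, adjusted p = 0.88). Klf4 was at 14.02, 14.2, 13.7 and 7.54 CPM and Esrrb at 5.01, 7.31, 4.16 and 3.02 CPM, each lower in both 36 h libraries than in both at 24 h. Klf2 (-0.74 ± 0.28) and Klf5 (-0.85 ± 0.33), of the same Kruppel-like family as Klf4, had adjusted p-values of 0.27 and 0.31. Fgf4, the ligand that drives ERK in these cells, missed the threshold narrowly, with 132, 163, 86.1 and 75.4 CPM (-0.87 ± 0.23, adjusted p = 0.059). Gbx2 was the 1 naive member with a fitted value above 0 (0.84 ± 0.42, adjusted p = 0.52). Prdm14, a transcriptional regulator of the naive state, had 0 counts in all 4 libraries.

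Among 15 tested genes of general pluripotency, 1 fell and 0 rose by edgeR, with a median log2 fold change of -0.31, while DESeq2 called 1 lower and 0 higher, and 2 were lower and 1 higher at an unadjusted p under 0.05. The gene that fell was Tdgf1 (Cripto, ENSMUSG00000032494, chromosome 9, 110939603 to 110946158), whose product is the co-receptor through which Nodal binds its receptors. It stood at 21.5 and 14.98 CPM at 24 h and at 2.97 and 3.02 CPM at 36 h, a fall of 2.56 ± 0.47 (adjusted p = 0.0039). The call was lost without 36 h replicate 1 (adjusted p = 0.13) and without 36 h replicate 2 (0.073). The markers that define the labelled cell type were present at both times. Pou5f1, the core pluripotency factor OCT4, was at 76.6, 79.3, 64.2 and 61.1 CPM (-0.31 ± 0.36, adjusted p = 0.90). Its partner Sox2 was at 284, 268, 170 and 163 CPM, lower in both 36 h libraries, with a value just short of the threshold (-0.73 ± 0.19, adjusted p = 0.051).

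Tdgf1 was also the 1 called gene among 16 tested members of the Nodal pathway (median -0.16, DESeq2 1 lower, 3 lower and 0 higher at an unadjusted p under 0.05). The ligand gene Nodal stood at 16.5, 25.6, 10.7 and 13.6 CPM (-0.83 ± 0.33, adjusted p = 0.31), with the 36 h values below both at 24 h. The intracellular mediators Smad2 (-0.57 ± 0.27) and Smad4 (0.33 ± 0.19) did not pass, and the Nodal antagonist gene Lefty1 was near the floor at both times.

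Genes that write, read or erase DNA methylation held 3 of the falls. Of 12 tested, 3 fell (0.536% over all tested genes) and 0 rose (0.485%) by edgeR (DESeq2 1 and 0). At an unadjusted p under 0.05, 4 were lower and 1 higher, and the median was -0.24. Most of the 3 calls were lost without any one of the 4 compared libraries. Dnmt3l (ENSMUSG00000000730, chromosome 10, 78041947 to 78063622), the catalytically inactive cofactor of the de novo methyltransferases, was the most abundant gene that fell, at 568, 603, 242 and 189 CPM. No 36 h value came near those at 24 h, and the change was -1.44 ± 0.23 (adjusted p = 0.00079). Dnmt3l overlaps Aire on the other strand, and whether counting used strand is not given in the sources used here. The 2 catalytic partners of DNMT3L did not pass. Dnmt3a was at 929, 770, 532 and 709 CPM (-0.45 ± 0.19, adjusted p = 0.34) and Dnmt3b at 1640, 1604, 2072 and 2048 CPM (0.34 ± 0.19, adjusted p = 0.61).

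Tet2, a dioxygenase that oxidises methylated cytosine, stood at 13.02, 12.8, 4.75 and 1.51 CPM (adjusted p = 0.041). Its relatives differed in sign without passing the test, Tet1 at -0.29 ± 0.25 and Tet3 at 1.096 ± 0.32 (adjusted p = 0.089). Zfp57, whose product protects methylation at imprinted loci, stood at 19.03, 28.5, 8.32 and 6.78 CPM (adjusted p = 0.043). Of 20 tested imprinted genes edgeR and DESeq2 called 0, with 2 higher and 1 lower at an unadjusted p under 0.05.

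Of 12 tested germline markers 1 fell by edgeR and 0 by DESeq2, with 5 lower at an unadjusted p under 0.05 and a median of -0.52. The 1 called marker was Stk31 (-1.39 ± 0.35, adjusted p = 0.044), which no fit without 1 of the 4 libraries called, while Dazl, the RNA-binding protein of germ cells, was at -1.21 ± 0.40 (adjusted p = 0.18). Outside the lists, Trap1a (ENSMUSG00000051257, chromosome X, 139333683 to 139338169), a tumour rejection antigen gene, stood at 396, 447, 150 and 146 CPM and fell by 1.51 ± 0.23 (adjusted p = 0.00079, 0.073 without 36 h replicate 1). The paralogs Tex19.1 and Tex19.2 both fell, by 0.88 ± 0.22 and by 1.96 ± 0.36. They share sequence, so the split of reads between them is uncertain. Tex19.2 was at 37.6, 37.6, 10.7 and 8.29 CPM, while Tex19.1, which restrains retrotransposons in germ cells, was at 314, 346, 176 and 184 CPM. Morc1, a repressor of transposons in male germ cells, fell by 1.59 ± 0.32. With 1 of the 4 libraries left out, Morc1 (adjusted p 0.055 to 0.17) and Tex19.1 (0.14 to 0.38) were called in no fit and Tex19.2 in 1. Trap1a, Tex19.1 and Morc1 were chosen after their values were seen and belong to no list, so they show nothing about germline genes as a group.

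The largest falls by rule held genes of varied function, and the plot of these genes by library gives their levels. The rule itself required that replicates not overlap. Pfkp (ENSMUSG00000021196, chromosome 13, 6579768 to 6648777) encodes the platelet-type phosphofructokinase of glycolysis. It stood at 76.6, 101, 28.5 and 21.9 CPM (-1.81 ± 0.28, adjusted p = 0.00079), and it overlaps Pitrm1 on the other strand. Vangl1, a planar cell polarity gene, was at 18.5, 24.1, 5.94 and 5.28 CPM (-1.92 ± 0.36). Cep55, which acts in the last step of cytokinesis, fell by 2.00 ± 0.39, whereas edgeR and DESeq2 called 0 of 24 tested genes of G2 and mitosis. Spp1, the secreted phosphoprotein osteopontin, fell by 1.79 ± 0.37. Irak3, a brake on Toll-like receptor signalling (-2.36 ± 0.44), and Icosl, a costimulatory ligand (-1.87 ± 0.39), are known from immune cells. Sult6b1, a sulfotransferase gene, fell by 2.09 ± 0.33 and the long noncoding RNA Eprn by 2.19 ± 0.38. The remaining falls under the rule were Enox1 (-1.96), Phf11d (-1.96) and AU018091 (-2.18), with 1 predicted gene that is not named.

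**Figure D2:**
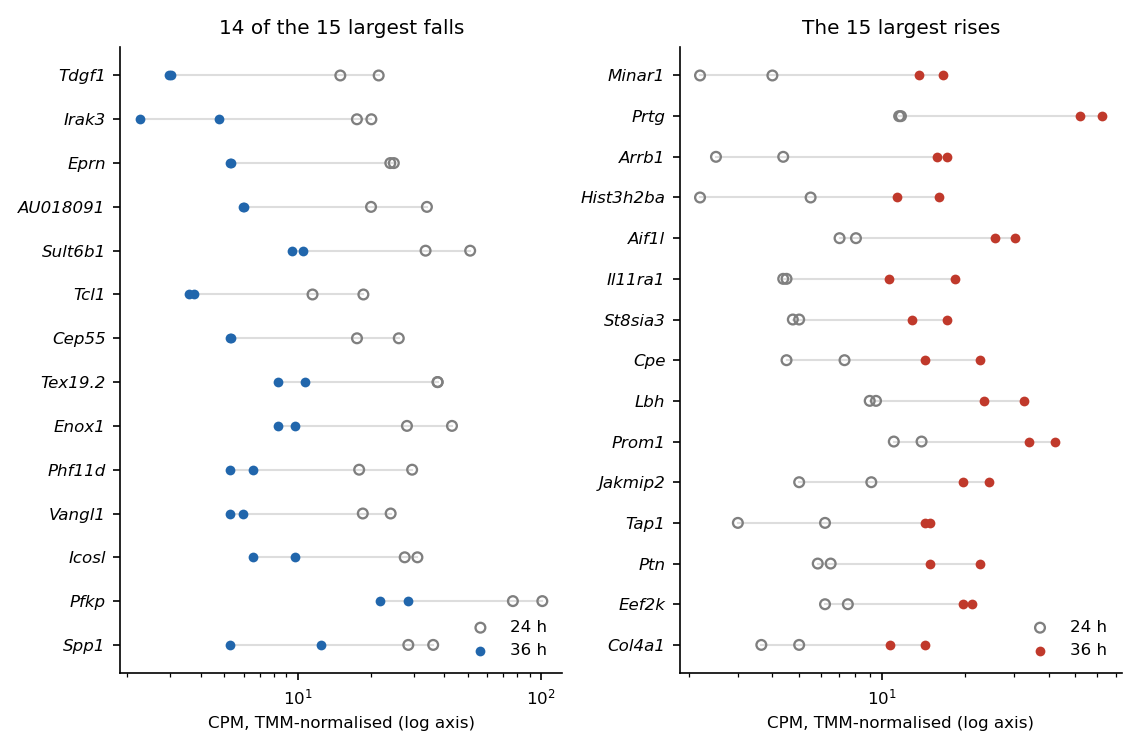
Levels (x axis, CPM after TMM scaling, log axis) of 14 of the 15 largest falls (left) and of the 15 largest rises (right) that the rule names, leaving out 1 predicted gene. Open circles are the 2 libraries at 24 h and filled circles the 2 at 36 h, and the rule took only genes in which the filled circles lie to one side of the open ones.

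Genes of early neural development held 3 of the rises. Of 26 tested, 3 rose (0.485% over all tested genes) and 0 fell (0.536%) by edgeR (DESeq2 1 and 0). At an unadjusted p under 0.05, 6 were higher and 1 lower, and the median was 0.34. None of the 3 was called with any 1 of the 4 compared libraries left out. Nes (ENSMUSG00000004891, chromosome 3, 87971078 to 87980451), the intermediate filament of neural progenitors, was at 14.02, 13.5, 30.9 and 35.4 CPM. The 36 h values lay above both at 24 h, by 1.26 ± 0.25 (adjusted p = 0.0079). Sox4, an HMG-box transcription factor gene, was at 173, 172, 296 and 298 CPM (0.79 ± 0.18, adjusted p = 0.019), and Ptn, the growth factor pleiotrophin, at 6.51, 5.84, 14.9 and 22.6 CPM (1.58 ± 0.35, adjusted p = 0.016). The related Sox11 was at 293, 303, 454 and 414 CPM and did not pass (0.54 ± 0.16, adjusted p = 0.099). Sox1, the first marker of committed neuroectoderm, was at 3.00, 1.83, 3.56 and 4.52 CPM, and Pax6 at 4.01, 8.77, 5.94 and 7.54 CPM with overlapping replicates.

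The gene with the smallest p of all was Prtg (protogenin, ENSMUSG00000036030, chromosome 9, 72806874 to 72917291), an immunoglobulin superfamily receptor of the early embryo and neural tube. It stood at 11.5 and 11.7 CPM at 24 h and at 62.4 and 52.0 CPM at 36 h. The rise was 2.30 ± 0.29 on the log2 scale, or 4.92-fold (adjusted p = 4.3e-05), and its adjusted p lay between 0.00038 and 0.017 with 1 library left out. Prom1, which encodes the membrane protein CD133 of neural and other progenitors, was at 11.02, 13.9, 42.2 and 33.9 CPM (1.60 ± 0.24, adjusted p = 0.00079) and lost its call without 36 h replicate 1 (adjusted p = 0.073). Aif1l, an actin-bundling protein gene, was at 7.01, 8.04, 30.3 and 25.6 CPM (1.88 ± 0.35, adjusted p = 0.0042).

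Of the 7 markers of neurons and glia that were tested, edgeR and DESeq2 called 0, and 3 were higher at an unadjusted p under 0.05. Their list of 12 summed to 96.6 and 96.1 CPM at 24 h and to 163 and 150 CPM at 36 h, without overlap, and most of this was Tubb3, the neuronal beta-tubulin (58.6, 63.6, 104 and 92.0 CPM, adjusted p = 0.43). Of the defining glial genes Olig2 and Sox10 had 0 counts in all 4 libraries and Gfap 1 count in all. The part of such cells in the rise of the neural genes was not tested.

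Other large rises by rule were Minar1 (2.33 ± 0.49) and Arrb1, the signalling adaptor beta-arrestin 1 (2.20 ± 0.47), from 4.38 CPM or less at 24 h to 13.6 CPM or more at 36 h. Hist3h2ba, a histone H2B gene, rose by 1.91 ± 0.43, Il11ra1, a cytokine receptor chain, by 1.72 ± 0.39, and Tap1, the peptide transporter of antigen presentation, by 1.59 ± 0.37. The rule also named St8sia3, a sialyltransferase (1.63 ± 0.37), Cpe, the prohormone-processing carboxypeptidase E (1.62 ± 0.41), Lbh (1.60 ± 0.38), Jakmip2 (1.59 ± 0.36) and Eef2k, the kinase that slows translation elongation (1.57 ± 0.36). At higher levels Btbd17, chosen after its values were seen, went from 65.6 and 60.6 to 170 and 143 CPM (1.32 ± 0.23, adjusted p = 0.0022).

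Basement membrane genes rose in 2 cases among 22 tested genes of matrix, integrins and mesenchyme (0 fell, DESeq2 0 and 0, median 0.25, 4 higher and 2 lower at an unadjusted p under 0.05). Over all tested genes 0.485% rose. Lamb1, the laminin beta 1 chain, was at 42.6, 34.3, 80.8 and 79.2 CPM (1.06 ± 0.21, adjusted p = 0.0068). Col4a1, a type IV collagen chain, was at 5.01, 3.65, 10.7 and 14.3 CPM (1.53 ± 0.39, adjusted p = 0.043). With 1 of the 4 compared libraries left out, Col4a1 was called in no fit and Lamb1 only without 24 h replicate 1. Col4a1 shares its locus with Col4a2 on the other strand. It is also the 1 called gene of 6 tested markers of primitive endoderm (DESeq2 0). Their median was 1.47, and 3 were higher and 0 lower at an unadjusted p under 0.05. With no overlap 4 of the 6 were higher and 0 lower, against 23% and 22.7% of all tested genes. Apart from Col4a1, the higher ones (Dab2, Lama1 and Foxq1) had 10 counts or fewer in either group. The list's summed level of 371, 423, 392.1 and 351 CPM, mostly Sparc and Lrp2, overlapped between the times. The defining genes of that lineage were at the floor, Gata4, Sox17 and Sox7 with 0 counts in all 4 libraries and Gata6 with 1. The part of such cells in the rise of Lamb1 and Col4a1 was not tested.

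In glycolysis and the response to hypoxia, 24 tested genes held 1 rise and 1 fall (DESeq2 0 and 1), with 4 higher and 3 lower at an unadjusted p under 0.05 and a median of 0.10. The fall was that of Pfkp. The rise was Slc2a1, the glucose transporter GLUT1, at 110, 99.0, 228 and 200 CPM (1.03 ± 0.23, adjusted p = 0.017), and no fit without 1 of the 4 libraries called it. The liver-type phosphofructokinase gene Pfkl was at 64.1, 57.7, 96.8 and 74.6 CPM (0.50 ± 0.21, adjusted p = 0.35) and Ldha, lactate dehydrogenase A, at 450, 487, 702 and 667 CPM (0.55 ± 0.17, adjusted p = 0.12). Pbx3, a cofactor of Hox proteins, was the 1 riser of 15 tested genes of retinoic acid response and Hox (1.09 ± 0.23, adjusted p = 0.011, DESeq2 0).

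The formative epiblast genes were abundant at both times as a list, and 1 of them passed the test. Of 25 tested, edgeR called 0 higher and 1 lower, which was Dnmt3l, and DESeq2 likewise 0 and 1, while 6 were higher and 3 lower at an unadjusted p under 0.05. The median of the list was 0.20, and its summed level of 5638, 5325, 5688 and 5694 CPM lay within a narrow range. Pou3f1, the POU factor OCT6, was at 435, 378, 526 and 570 CPM (0.43 ± 0.18, adjusted p = 0.37). Otx2, the homeobox factor that directs formative enhancers, was at 506, 457, 443 and 432 CPM (-0.14 ± 0.18, adjusted p = 0.92). Fgf5, the classical postimplantation marker, stood at 31.5, 33.97, 54.1 and 46.7 CPM (0.62 ± 0.26, adjusted p = 0.38) and Sox3 at 85.1, 80.0, 148 and 160 CPM (0.90 ± 0.41, adjusted p = 0.44). In both, the 36 h libraries were above those at 24 h. The heterochronic gene Lin28b came close to the threshold (33.05, 28.1, 54.1 and 50.5 CPM, 0.78 ± 0.20, adjusted p = 0.051).

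**Figure D3:**
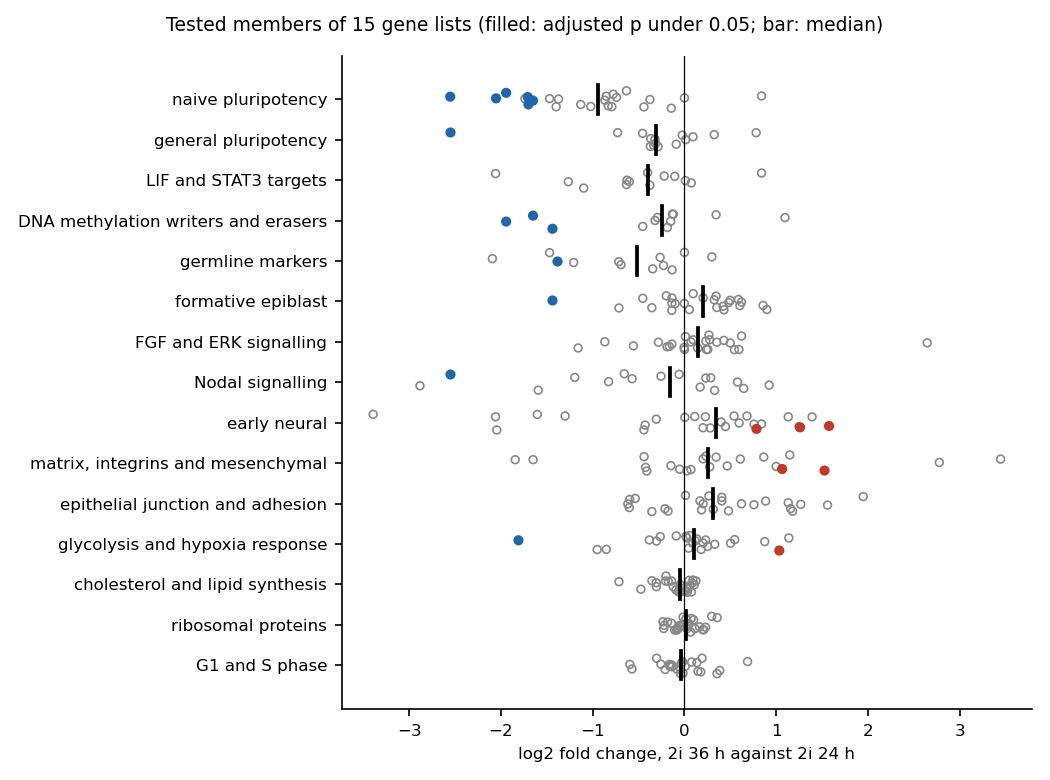
Log2 fold change from 24 to 36 h (x axis) of each tested member of 15 gene lists (y axis). Filled points passed the test (blue fell, red rose), open points did not, and the black bar is the median, which lies at -0.94 for naive pluripotency and at 0.02 for ribosomal proteins. Vertical scatter within a row has no meaning.

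The lists of FGF and ERK signalling, BMP, Wnt, Notch, and LIF and STAT3 targets held no called gene by edgeR or DESeq2. At an unadjusted p under 0.05, 635 of all 11761 tested genes were higher and 514 lower, 9.77% in both directions. The same counts were 2 and 1 of 25 for FGF and ERK signalling, 3 and 1 of 12 for BMP and 1 and 0 of 20 for Wnt. They were 1 and 1 of 18 for Notch, and 0 and 2 of 13 for LIF and STAT3 targets. The nearest to the threshold were Bmp7, a BMP ligand gene (1.502, 1.096, 5.94 and 5.28 CPM, 2.09 ± 0.56, adjusted p = 0.055), and Lifr, the LIF receptor gene (23.03, 34.7, 7.72 and 17.3 CPM, -1.27 ± 0.33, adjusted p = 0.051). The ERK feedback genes Spry2, Dusp6 and Etv5 had log2 fold changes of -0.0046, 0.23 and 0.10.

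Lists of housekeeping processes had medians near 0, and edgeR and DESeq2 called 0 genes in each. Medians were 0.02 over 28 ribosomal protein genes, -0.05 over 24 nuclear genes of oxidative phosphorylation, -0.05 over 27 genes of cholesterol and lipid synthesis, -0.04 over 25 genes of G1 and S phase and -0.12 over 24 genes of G2 and mitosis. At an unadjusted p under 0.05 these lists held 0, 0, 0, 2 and 1 genes, against 9.77% of all tested genes. The ATF4 and amino acid response had a median of -0.30 over 27 genes, 1 of them higher and 6 lower at an unadjusted p under 0.05, with Atf4 itself at 1293, 1553, 1077 and 930 CPM (-0.50 ± 0.19, adjusted p = 0.29). Among genes of cell shape and contact, 3 of 25 epithelial genes were higher and 1 lower at an unadjusted p under 0.05. The same counts were 6 and 2 of 24 for Eph receptors, ephrins and axon guidance, and 4 and 3 of 24 for tubulins and the neuronal cytoskeleton. Cdh1 (E-cadherin) stood at 739, 823, 1038 and 1034 CPM (0.41 ± 0.22, adjusted p = 0.58).

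Markers of other lineages stayed low. Primitive streak and mesoderm genes summed to 18.0, 10.2, 20.8 and 17.3 CPM, definitive endoderm to 14.5, 13.2, 19.6 and 12.8 CPM and trophectoderm to 21.5, 26.7, 21.98 and 16.6 CPM, each with overlapping groups. By edgeR and DESeq2 they held 0 called genes among 13, 6 and 8 tested, with 1, 0 and 0 at an unadjusted p under 0.05. Fibroblast markers summed to 22.5, 13.9, 26.1 and 24.9 CPM, higher in both 36 h libraries, with 0 called by either tool and 0 of 6 at an unadjusted p under 0.05. No gene of 12 markers of the 2-cell-like state passed the filter on low counts, and they summed to 6.51, 14.2, 10.1 and 10.6 CPM.

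Of the called genes 7 had 0 to 3 counts in a group, and their folds rest on counting. Atp1a4, a sodium pump subunit of sperm, went from 34 counts at 24 h to 0 at 36 h, at least 7.205-fold lower when the floor of 3 counts stands for the group at 36 h. Mymx, the muscle fusion factor myomixer, had 27 counts and then 1, a ratio of 17.2 (95% exact counting interval 2.83 to 703), and Tnni3, cardiac troponin I, 35 and then 2, a ratio of 11.1 (2.86 to 95.5). Shc4, a Shc adaptor gene, went the other way with 1 and then 17 counts, a ratio of 26.7 (4.19 to 1118). These intervals and floors cover counting error only, and all 4 genes were chosen after their values were seen.

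The sequence ahead of the transcription start was read for the called genes that have one in RefSeq (GRCm38.p6), to show what lies ahead of the genes that fell and those that rose. Windows were the 250 bases upstream of the start, kept where that start lay within 500 bases of the GENCODE start. The median number of CG dinucleotides was 8.5 in 40 windows of fallers, 15 in 39 windows of risers and 17 in 8071 windows of tested genes, and this is a description with no test. The octamer ATGCAAAT, the motif bound by POU factors such as OCT4 and OCT6, was searched on both strands. It lay in 1 of 40 windows of fallers (2.50%), 0 of 39 of risers and 1.31% of those of all tested genes. 3 windows are printed as examples picked by hand, those of the fallers Zfp42, the 1 with the octamer, and Trap1a and of the riser Nes, with 9, 7 and 15 CG. They are written 5' to 3' on the gene's strand, with CG dinucleotides in capitals, and in Zfp42 also the reverse complement of the octamer, ATTTGCAT, which starts 186 bases before the start.
Zfp42, chr8:43307010-43307259, minus strand: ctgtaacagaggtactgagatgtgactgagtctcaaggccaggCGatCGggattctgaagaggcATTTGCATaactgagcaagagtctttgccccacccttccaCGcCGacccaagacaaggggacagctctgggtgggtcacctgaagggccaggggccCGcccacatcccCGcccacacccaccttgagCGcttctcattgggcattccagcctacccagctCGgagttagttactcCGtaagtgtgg
Trap1a, chrX:139333433-139333682, plus strand: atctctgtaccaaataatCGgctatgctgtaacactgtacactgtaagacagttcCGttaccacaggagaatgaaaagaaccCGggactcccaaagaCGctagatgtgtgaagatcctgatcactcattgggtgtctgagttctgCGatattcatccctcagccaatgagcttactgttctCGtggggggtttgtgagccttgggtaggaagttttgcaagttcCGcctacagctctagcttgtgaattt
Nes, chr3:87970843-87971092, plus strand: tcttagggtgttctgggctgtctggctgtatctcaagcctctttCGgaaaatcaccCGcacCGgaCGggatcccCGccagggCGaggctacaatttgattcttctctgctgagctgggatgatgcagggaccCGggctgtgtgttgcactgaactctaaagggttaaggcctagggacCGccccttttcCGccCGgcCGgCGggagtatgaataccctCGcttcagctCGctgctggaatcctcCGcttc

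The 2i course places the interval in time, and the values here are a description, since neighbouring comparisons share libraries. The median level of the 63 fallers was 40.4 CPM at 0 h, 67.1 at 12 h, 32.3 at 24 h, 10.5 at 36 h, 5.396 at 48 h and 2.54 at 84 h. In 56 of them the mean was higher at 12 h than at 0 h, against 19 of the 57 risers. At 48 h, 48 of the fallers were lower still than at 36 h. The 12 h group holds a library that stands apart, and no share over all tested genes was worked out for these counts. The median of the 57 risers was 8.08, 5.18, 6.86, 20.4, 32.9 and 37.7 CPM at 0, 12, 24, 36, 48 and 84 h. Of the risers 45 were higher still at 48 h. All of the other 27 called genes lay between their 24 and 36 h levels at 48 h.

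Within these shapes the members differed. Zfp42 had lost most of its level before 24 h, with 152 ± 18.1 CPM (SD, n = 2) at 0 h, 181 ± 23.1 at 12 h and 5.44 ± 3.63 at 48 h. Dnmt3l had its highest mean at 12 h, with 161 ± 4.03 CPM at 0 h, 824 ± 87.8 at 12 h and 57.2 ± 19.97 at 48 h. Trap1a followed a like path, at 292 ± 29.01, 565 ± 90.1 and 31.4 ± 1.00 CPM. From 12 to 24 h neither gene passed the edgeR test (adjusted p = 0.15 for Dnmt3l and 0.25 for Trap1a). The 12 h group holds 1 of the libraries that stand apart. Among the risers Prtg continued to 165 ± 12.99 CPM at 48 h and 478 ± 23.7 at 84 h, and Ptn went from 43.4 ± 1.79 to 626 ± 13.6 CPM. Slc2a1 turned after 48 h (285 ± 27.4 CPM) to 88.9 ± 10.1 at 84 h, and Btbd17 was at 153 ± 18.2 and 60.0 ± 10.6 CPM.

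**Figure D4:**
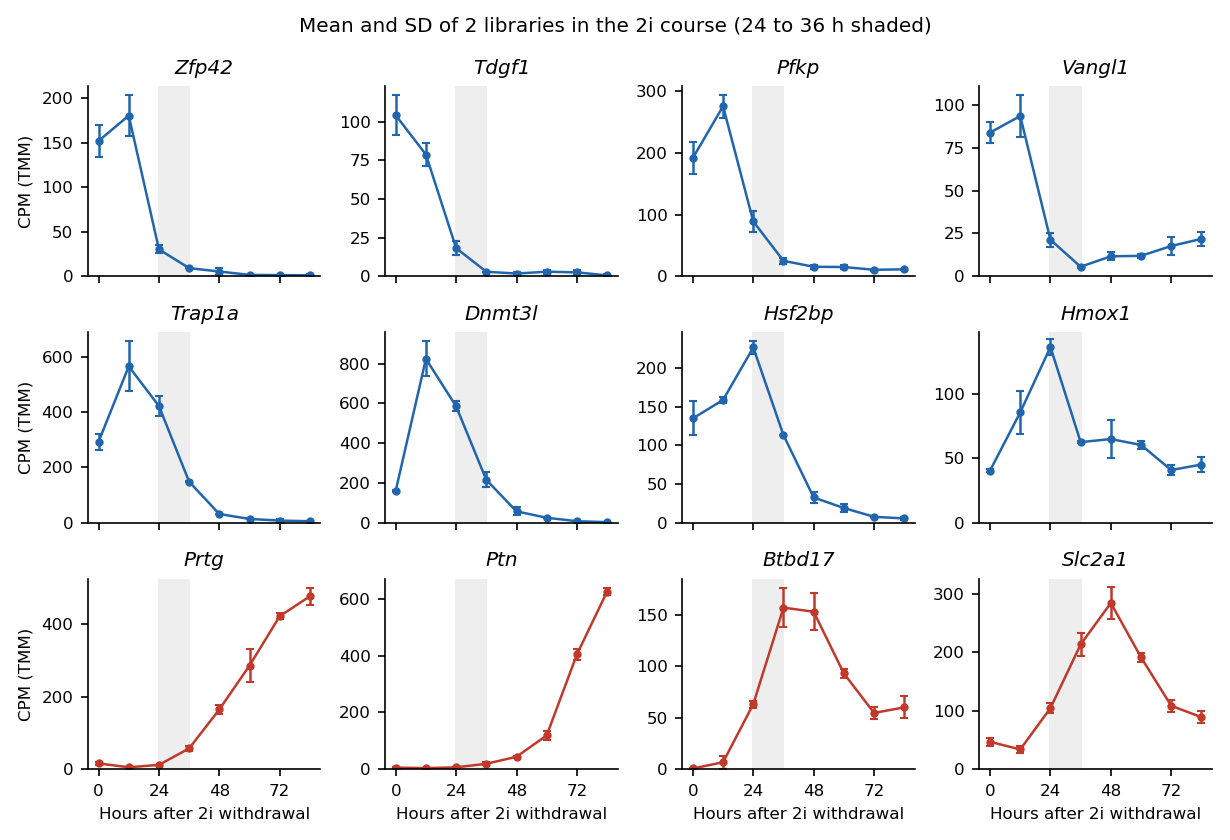
Levels of 8 fallers (blue) and 4 risers (red) over the 2i course (x axis, hours after withdrawal; y axis, CPM after TMM scaling, from 0). Points are means and bars SDs of 2 libraries, and the grey band is the interval from 24 to 36 h. In the band Dnmt3l and Trap1a fall and Prtg rises. Dnmt3l and Trap1a had their highest means at 12 h, but neither passed the edgeR test from 12 to 24 h.

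Whether 36 h departs from a straight path between its neighbours was tested as 36 h against the mean of 24 and 48 h. edgeR called 0 of 11761 genes (0%), with 544 at an unadjusted p under 0.05 (4.63%), and DESeq2 called 0, with 190. The smallest adjusted p of edgeR was 0.427.

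Whether the interval differs between the courses was tested as the 24 to 36 h change in 2iL minus that in 2i. edgeR called 7 genes higher (0.0595%) and 0 lower (0%), where 353 were lower at an unadjusted p under 0.05 and DESeq2 called 0 lower and 1 higher. At an unadjusted p under 0.05 the test passed 787 genes in both directions (6.69%). The 2iL group at 36 h rests in effect on its replicate 1, because the other library is the shallow one, and without that one 11 genes were higher and 0 lower. Slc16a3, a lactate transporter gene, was at 150 and 110 CPM at 24 h and 434 CPM at 36 h (replicate 1) in 2iL but at 717, 845, 645 and 553 CPM in 2i. The difference was 2.07 ± 0.30 (adjusted p = 0.00061, 2.12 without the shallow library), and this gene was the 1 that DESeq2 called. Dnmt3a (1.79 ± 0.29, adjusted p = 0.0039) and Pou3f1 (1.79 ± 0.32, adjusted p = 0.013) were at 166 and 113 CPM and at 28.5 and 28.9 CPM in 2iL at 24 h, and at 378 and 134 CPM at 36 h. In 2i both genes had reached 378 CPM or more by 24 h.

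The comparison of 2iL 48 h with 2iL 24 h shares no library with the 2i interval. There edgeR called 657 genes higher (5.59%) and 563 lower (4.79%), 10.4% in both directions. Of the 57 risers in 2i 32 were higher in 2iL too, which is 56.1% of the risers and 4.87% of the 657, and 0 were called lower. Of the 63 fallers 34 were lower in 2iL too, which is 54.0% of the fallers and 6.04% of the 563, and 1 (Hmox1) was called higher. Hmox1 passed narrowly there (edgeR, adjusted p = 0.048), and its 2iL 24 h replicates differed, at 58.5 and 27.9 CPM. By DESeq2, with RLE factors or without the shallow library, 0 fallers were called higher. With no low-count filter or with the replicate block it was 1. Without 2iL 48 h replicate 1, 1 of the libraries that stand apart, the shared counts were 22 and 27, with 303 and 271 genes called in 2iL. Without 2iL 24 h replicate 2 they were 19 and 20 (236 and 244 called), and by DESeq2 13 and 16 (22.8% of the risers and 25.4% of the fallers).

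The naive list was called lower for 18 of 24 members in that 2iL comparison and higher for 1, with a median of -1.77. Zfp42 (-1.84) and Tcl1 (-2.83) were among them. Of the other lists, 13 of 25 formative genes were called higher in 2iL and 2 lower (median 1.54), and 12 of 24 glycolysis genes higher and 2 lower (median 0.95), but the difference between these windows was not tested. Fallers of 2i with values near 0 in 2iL included Trap1a (-0.14) and Dnmt3l (-0.22), neither of which passed there. Among the risers Prtg had a 2iL value of 1.33 and did not pass (adjusted p = 0.082), while Sox4 (1.52) and Nes (1.07) did.

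**Figure D5:**
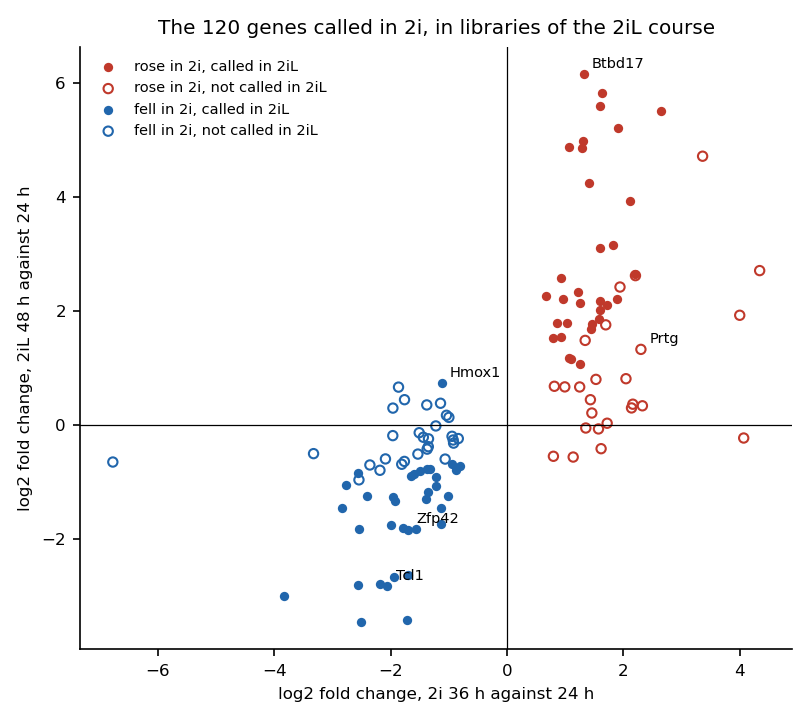
The 120 genes called in the 2i interval, with their log2 fold change there (x axis) and in 2iL from 24 to 48 h (y axis), in separate libraries. Red rose and blue fell in 2i, and filled points were also called in 2iL. The filled points are the 32 risers and 34 fallers called in the same direction, and Hmox1 is the 1 filled point with the opposite sign. Its call in 2iL was narrow and was absent by DESeq2.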

How the data were processed

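Each library has its own table of counts, deposited by the authors, in which uniquely aligned reads are summed for 31053 Ensembl genes, followed by 5 summary lines. Their deposited table of CPM matched the counts scaled to 1000000 within 4.7e-10, and all results rest on the counts. Build mm10 and the tools HTSeq, STAR 2.6.0a and bcl2fastq are those of the submitters' processing notes. The annotation release, and whether strand was used, are not given in the sources used here. Reads assigned to no gene, left out here, were 23.4% to 55.4% of the unique alignments of a library. GENCODE M21 supplied symbols and positions (31011 IDs had a symbol), and RefSeq GRCm38.p6 the promoter sequences.

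Tests used edgeR 4.0.16 in R 4.3.3, namely filterByExpr, TMM and the quasi-likelihood test on a single fit of all 32 libraries with 1 coefficient per group (16 residual degrees of freedom, common dispersion 0.0215). Benjamini-Hochberg adjustment ran over all 11761 genes, and an adjusted p under 0.05 is a call. A standard error is the size of the log2 fold change divided by the root of its F statistic. Depth was 1122648 to 3438514 counts in 31 libraries and 7298 in the shallow one. Alternatives were other normalisation, no filter, DESeq2 1.42.0, a replicate block, other sets of libraries and leaving out each compared library. In counts simulated for this comparison over 11761 genes, the test recovered 6% of 50 genes changed 1.5-fold, 60% at 2-fold, 90% at 4-fold and 100% at 8-fold, with 5 false calls of 133. The changed genes were drawn only from those above a minimum mean level in the 4 libraries, so recovery of lower genes was not measured. Each gene was otherwise set to 1 level in all groups, and counts were drawn from the model edgeR assumes, with the spread edgeR estimated. The false calls hold for that setting and do not measure the error among the genes called in the data.

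Named genes are members of 35 gene lists, the 15 largest rises and 15 largest falls (called, mean log2 of CPM plus 1 in the 4 libraries of at least 3, replicates not overlapping), and up to 8 genes of the course difference with the smallest p at that level. Predicted genes are not named, and exceptions are stated. The comparison, the lists and the libraries that stand apart were chosen with earlier results of these data known.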

Additional observations from a re-analysis of the deposited data

Results flagged for a closer look

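For 7 genes the change from 24 to 36 h differed between the courses by a test of the difference itself (edgeR, adjusted p under 0.05), and all 7 differences, 2iL minus 2i on the log2 scale, were above 0. They were 2.07 for Slc16a3, 1.79 for Dnmt3a and 1.79 for Pou3f1, whose levels the report gives. Hmox1, which encodes the haem-degrading enzyme heme oxygenase 1, had a difference of 1.95 ± 0.35 (adjusted p = 0.013). It stood at 132, 140, 63.0 and 61.8 CPM in 2i at 24 and 36 h, and at 58.5 and 27.9 CPM (24 h) and 78.6 CPM (36 h replicate 1) in 2iL. Ryr3, an intracellular calcium channel gene, had a difference of 2.54 ± 0.47 (adjusted p = 0.013) and Map7d3, a microtubule-associated protein gene, one of 1.89 ± 0.36 (adjusted p = 0.014). Vrtn had 1 and 0 counts in 2iL at 24 h and 32 at 36 h replicate 1, so its difference of 4.53 depends on the prior count of the fit and is no estimate of size. The 7 were called again without the shallow library. Without 2iL 24 h replicate 2, 2iL 36 h replicate 1 or 2i 36 h replicate 1, 1 gene was called higher, which for the first and the last of these was Slc16a3. The cause was not tested.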

How the results depend on the processing

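The 57 rises and 63 falls of the 2i interval numbered 6 and 7 by DESeq2, 175 and 198 without the 4 libraries that stand apart, 203 and 272 with the 4 compared libraries fitted alone and 152 and 181 with the 2i course alone, and without a low-count filter 100 genes fell. Leaving out 1 compared library gave 1 to 9 rises and 2 to 27 falls. Of the 120 genes 114 were called with RLE factors, 112 without the shallow library and 106 with no filter, and no named call of this interval changed sign in the alternatives run. For 36 h against the mean of 24 and 48 h the 0 higher and 0 lower became 4 higher with no filter, 8 and 2 without the 4 libraries and 2 and 1 in the 2i course alone, and stayed 0 with each library left out. The course difference (7 higher, 0 lower) gave 31 and 4 with no filter, 1 higher by DESeq2, 11 higher without the shallow library and 63 and 14 without the 4 libraries, and 1 to 11 higher and 0 to 23 lower with 1 library left out. Without 2iL 36 h replicate 1 that group is the shallow library alone, and Ryr3 (-6.53), Map7d3 (-8.02) and Vrtn (-2.98) changed sign, while with other libraries left out their highest values were 2.80, 2.10 and 7.47. The 657 and 563 genes of 2iL 48 h against 24 h were 170 and 218 by DESeq2, 363 and 345 in the 2iL course alone, and 236 to 956 and 244 to 892 with 1 library left out. A group left with 1 library is assumed to vary like the others. The cause was not tested beyond the smaller number of libraries.

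With the replicate block the interval had 52 rises and 60 falls, and 107 of the 120 calls held. The numbers do not pair the libraries. The differences between replicates 1 and 2 at 24 and 36 h of 2i correlated at -0.0909 across genes, and over 105 pairs of 15 groups at -0.416 to 0.453, with 11 above 0.1. At the depth of these libraries genes near 1.05 to 2.12 CPM have about 3 counts, and the test recovers few changes of 1.5-fold, so values that did not pass are not shown to be unchanged.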
